A study of Mus musculus with 18 samples.

Results

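The synaptic vesicle and SNARE machinery was followed across 67 genes of the 18194 genes that the arrays measured with a probe set of a single gene symbol. The members were chosen by gene symbol, with earlier results of these data known: the synaptotagmins (Syt), synapsins (Syn), vesicle-associated membrane proteins (Vamp), syntaxins (Stx) and their binding proteins (Stxbp), the Sv2, complexin (Cplx), Rab3 and synaptogyrin (Syngr) families, and Snap25, Snap23, Snap29, Snap91, Syp, Nsf and Napb. They were covered by 164 probe sets, and the probe set brightest on average over the 18 arrays stood for each gene; 21 members had a single probe set. Levels are given as log2(intensity + 16) after quantile normalization, differences are on the same scale, and levels of different genes are not compared because each probe set responds on its own scale. Of the members, 55 had a mean at or above 8.79, the 40th percentile of all genes, and 12 lay below it (Cplx3, Cplx4, Stx11, Stx19, Sv2c, Syngr4, Syt10, Syt16, Syt5, Syt6, Syt8 and Syt9). Levels below 8.79 are called close to background here, a cut set by the percentile and not by a detection call. No fold is given where either group mean lies there. Cplx3, Cplx4, Stx11, Stx19, Syngr4, Syt10, Syt6 and Syt8 passed the brightness filter in no comparison and were not tested.

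The study measured 6 groups of 3 mouse samples, 1 array per sample: wildtype and SOD1 mutant ventral spinal cord tissue, wildtype and SOD1 mutant spinal motor neurons, and wildtype and SOD1 mutant motor neurons of the facial nucleus in the brainstem. SOD1 encodes a superoxide dismutase of the cytosol, and mutant forms of it cause familial amyotrophic lateral sclerosis, in which motor neurons degenerate. Per the labels, RNA was amplified linearly from a T7 promoter. The labels name no SOD1 allele, strain, sex or age. Every title carries D60, which the labels leave unexplained. They do not say how motor neurons were picked, and do not tie samples to animals. The p-values therefore reflect the spread among these samples alone, part of which may be technical.

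Neurotransmitter leaves a nerve terminal when a vesicle SNARE (a Vamp protein) zips up with SNAREs of the plasma membrane (a syntaxin and a Snap25 relative) and draws the membranes together. Stxbp proteins and complexins control that assembly, synaptotagmins couple it to calcium, and the ATPase Nsf with its adaptors takes the spent complexes apart. Synapsins hold vesicles in clusters, Rab3 GTPases help tether them to the release site, and Sv2, synaptophysin and synaptogyrin proteins span the vesicle membrane. Other SNAREs serve the endoplasmic reticulum, the Golgi apparatus and endosomes in every cell. In motor neurons the mRNA of these proteins lies mostly in the cell body, while the proteins work at the neuromuscular junction; cord tissue also holds the cell bodies of interneurons.

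Upstream sequence is shown for the members on which the comparisons turn. Rab3b had the largest rise over tissue that had a fold, and Syt1 the largest such fall in spinal motor neurons. Rab3c and Stxbp6, on the probe sets used, passed between motor neuron sites in both genotypes. The other bright probe sets of Rab3c did not share its wildtype direction. Syt2 had the smallest p between genotypes in tissue. Each run is the 250 bases before the RefSeq start of the gene, 5′ to 3′ on the gene's strand, in GRCm38.p6. The Rab3b window is chr4:108878820-108879069 on the plus strand, the Rab3c window chr13:110280207-110280456 on the minus strand and the Stxbp6 window chr12:45074484-45074733 on the minus strand. The window of the first Syt1 start is chr10:109010976-109011225 on the minus strand, and that of the first Syt2 start is chr1:134646362-134646611 on the plus strand. Capitals mark matches on either strand to the GC box GGGCGG and the CCAAT box CCAAT, which are common elements of promoters; overlapping GC boxes run together.
Rab3b: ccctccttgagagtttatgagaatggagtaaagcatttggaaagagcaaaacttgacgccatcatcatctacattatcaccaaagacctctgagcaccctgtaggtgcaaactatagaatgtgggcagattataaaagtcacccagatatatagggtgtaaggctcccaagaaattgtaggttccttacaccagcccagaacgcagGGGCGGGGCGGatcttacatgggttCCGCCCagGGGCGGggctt
Rab3c: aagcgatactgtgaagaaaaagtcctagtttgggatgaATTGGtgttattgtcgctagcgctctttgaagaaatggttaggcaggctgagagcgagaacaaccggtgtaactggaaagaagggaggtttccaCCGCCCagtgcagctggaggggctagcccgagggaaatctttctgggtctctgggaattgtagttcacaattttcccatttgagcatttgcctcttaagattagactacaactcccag
Stxbp6: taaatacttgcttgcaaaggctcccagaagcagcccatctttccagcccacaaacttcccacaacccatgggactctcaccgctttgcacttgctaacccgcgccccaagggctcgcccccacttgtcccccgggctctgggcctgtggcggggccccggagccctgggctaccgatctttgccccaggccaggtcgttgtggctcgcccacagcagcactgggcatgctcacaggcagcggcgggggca
Syt1: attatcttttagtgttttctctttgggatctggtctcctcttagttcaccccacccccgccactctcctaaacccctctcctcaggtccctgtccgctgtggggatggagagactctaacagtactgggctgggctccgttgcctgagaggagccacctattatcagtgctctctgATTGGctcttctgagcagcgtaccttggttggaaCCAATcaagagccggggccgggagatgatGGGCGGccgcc
Syt2: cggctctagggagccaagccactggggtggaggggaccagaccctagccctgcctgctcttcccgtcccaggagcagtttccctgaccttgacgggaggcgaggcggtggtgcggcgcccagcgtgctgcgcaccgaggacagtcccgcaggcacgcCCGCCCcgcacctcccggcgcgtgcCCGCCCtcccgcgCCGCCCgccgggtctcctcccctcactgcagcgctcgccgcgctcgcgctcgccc
The Rab3b window held 4 GC boxes, the Rab3c window 1 GC box and 1 CCAAT box, and the Syt1 window 1 GC box and 2 CCAAT boxes. The Stxbp6 window held no match, and the Syt2 window held 3 GC boxes. A window was found for 53 of the 67 members, in 69 windows, against 32851 windows of all genes. The GC box was in 56.5% of the member windows and 32.7% of all, the CCAAT box in 27.5% and 33.8%, and the homeodomain core TAAT, which is not capitalized here, in 43.5% and 54.9%. These matches describe the letters only.

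Tissue and motor neuron arrays differed in ways that touch every comparison between them. The median deposited intensity was 533 to 583 on tissue arrays and 286 to 341 on motor neuron arrays. The ratio of the 3' to the 5' actin control probe sets, which rises as amplified RNA shortens, was 1.63 ± 0.0577 (SD, n = 3) for wildtype tissue and 1.64 ± 0.116 for mutant tissue, 46.5 ± 9.06 and 30.7 ± 7.36 in wildtype and mutant spinal motor neurons, and 67.6 ± 7.44 and 39.8 ± 17.0 in facial motor neurons. Sod1, the gene that the genotype is named for, was at 16.10 ± 0.0817 in wildtype and 16.49 ± 0.104 in mutant tissue (log2 difference 0.38, limma adjusted p = 0.0401), and at 0.46 (adjusted p = 0.140) and 0.24 (adjusted p = 0.161) between genotypes in spinal and facial motor neurons. The species of the mutant gene is not given in the sources used here, so these levels do not check the genotype. The motor neuron markers Isl1, Mnx1 and Prph rose in wildtype spinal motor neurons over tissue by 4.40, 4.43 and 3.55, while the cholinergic Slc18a3 (0.48, adjusted p = 0.312) and Slc5a7 (-0.42, adjusted p = 0.525) did not pass. Markers of glia and vessels fell in wildtype spinal motor neurons for 10 of 12 astrocyte, 10 of 10 oligodendrocyte, 6 of 10 microglia and 4 of 5 endothelial genes tested, and none of them rose. Of all genes, 23.1% fell and 35.5% rose in that comparison. Interneuron markers averaged 13.93 to 14.06 on tissue arrays and 8.43 to 10.78 on motor neuron arrays. Their defining transporters Slc17a6 and Slc32a1 were at 10.79 and 11.65 in wildtype spinal and 9.87 and 8.74 in wildtype facial motor neurons.

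**Figure D1:**
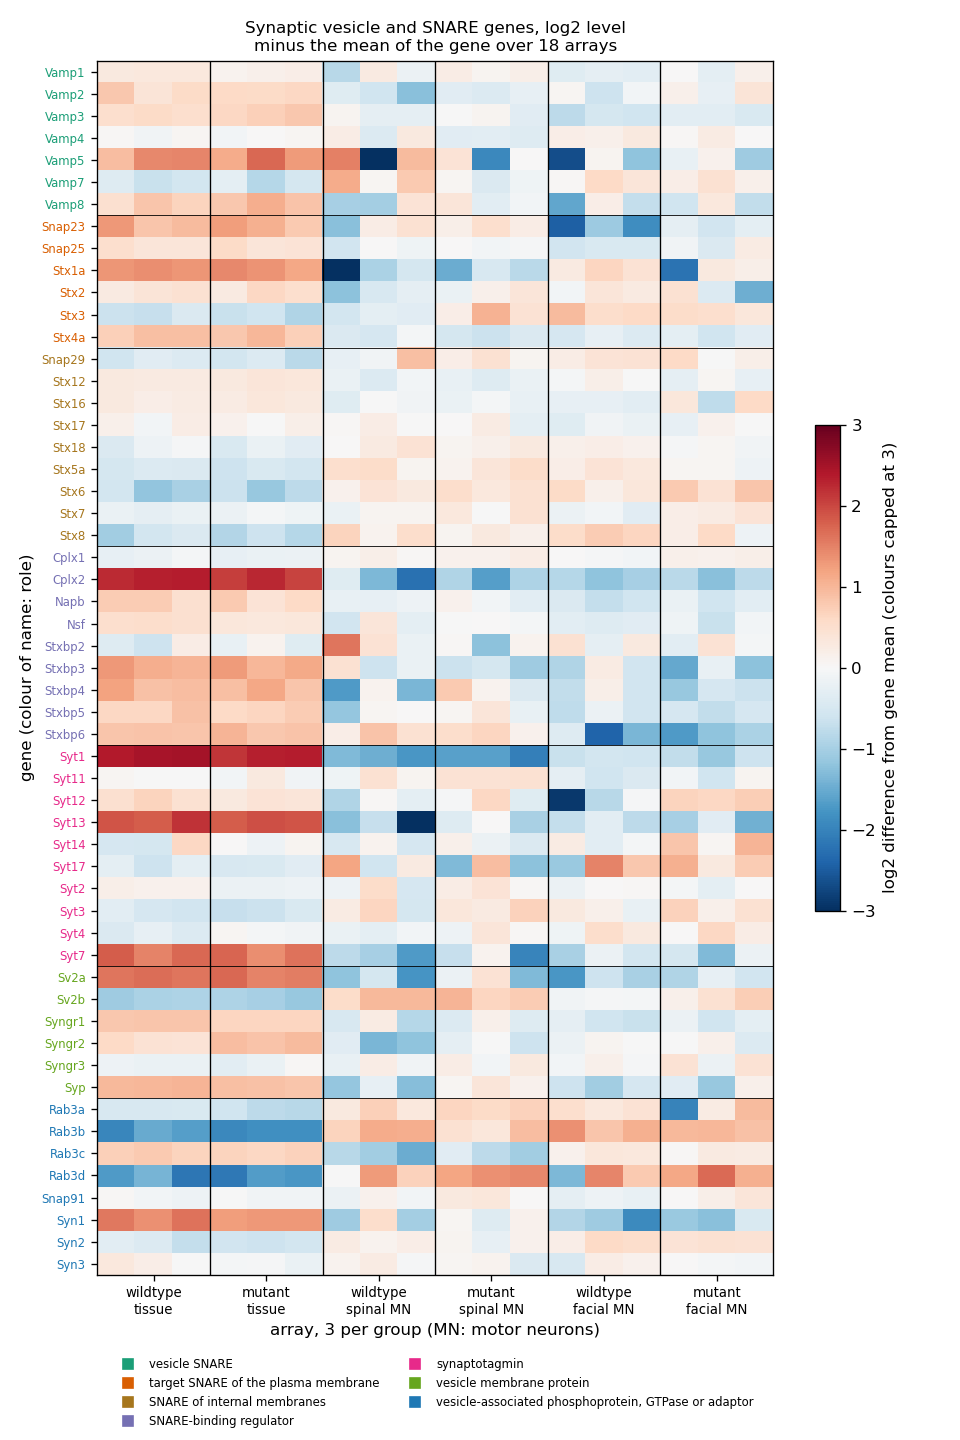
Each cell is the log2 level of a gene on an array minus the mean of that gene over the 18 arrays, for the 55 members with a mean of at least 8.79; rows are ordered by role, columns are the 3 arrays of each group, and colours are capped at 3. Cplx2, Syt1, Syt7 and Syt13 are high on all 6 tissue arrays. Rab3b is high on all motor neuron arrays, and Rab3d and Sv2b on most of them. Sv2b lies just below its mean of 14.38 on the 3 wildtype facial arrays. Rab3d lies at its mean of 10.43 on wildtype spinal replicate 1 and below it, at 9.09, on wildtype facial replicate 1.

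In wildtype spinal motor neurons, more members of the release machinery fell than rose relative to the surrounding ventral cord tissue. Of 56 members tested with limma, 37 passed at an adjusted p of 0.05, 11 higher and 26 lower, which is 66.1% of the members against 58.7% of all genes tested (35.5% higher and 23.1% lower). The median member difference was -0.46, against 0.22 over all genes. Arrays of the pair of groups did not overlap for 40 members (71.4%, against 67% of all genes), with motor neurons above tissue for 12 (40% of all genes) and below it for 28 (27%). In wildtype facial motor neurons, compared with the same tissue arrays, 45 of 57 members passed (78.9%, against 68.2% of all genes), 14 higher (41.3% of all genes) and 31 lower (26.9%), again with a median of -0.46 beside 0.22. This tissue is ventral cord, while the facial nucleus lies in the brainstem. Region and cell type cannot be told apart in the facial comparison. In mutants, spinal motor neurons against mutant tissue, 45 of 56 passed (80.4%, against 68.8%), 18 higher (42% of all genes) and 27 lower (26.8%), with a median of -0.31 beside 0.24. Arrays did not overlap for 49 members in the facial comparison (73.1% of all genes) and for 45 in the mutant one (72.9%). In bulk samples such as the tissue, fewer cells of a type and less RNA per cell cannot be told apart, and sample kind and the actin ratio cannot be told apart either: with the ratio in the model 1, 0 and 0 members passed in the 3 comparisons.

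These directions depended in part on how tissue and motor neuron arrays were scaled. When array medians were equalized in place of quantile normalization, called a common median here, the median of all genes moved from 0.22 to 0.69 in wildtype spinal motor neurons, from 0.22 to 0.77 in facial ones and from 0.24 to 0.74 in mutant spinal ones. The member medians then became 0.50, 0.32 and 0.49, below those of all genes under either scaling. The calls became 25 higher and 16 lower, 27 and 18, and 30 and 11. Calls over all genes at a common median, or under both scalings, were not counted, so these member counts have no share beside them. In the wildtype spinal comparison 11 members were higher and 16 lower under both scalings, and Napb, Nsf, Snap25 and Stx12 passed in opposite directions. In the facial comparison 14 were higher and 18 lower under both, and Nsf, Rab3c, Snap25, Stx12, Stx16, Syt11 and Vamp1 passed in opposite directions. In mutants 18 were higher and 11 lower under both, and Napb, Nsf, Snap25, Stx12, Stx16, Stxbp6, Syp and Vamp4 passed in opposite directions. The bright members of the core fusion machinery are among these, so no direction is given for Snap25, Nsf or Vamp1 between motor neurons and tissue.

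**Figure D2:**
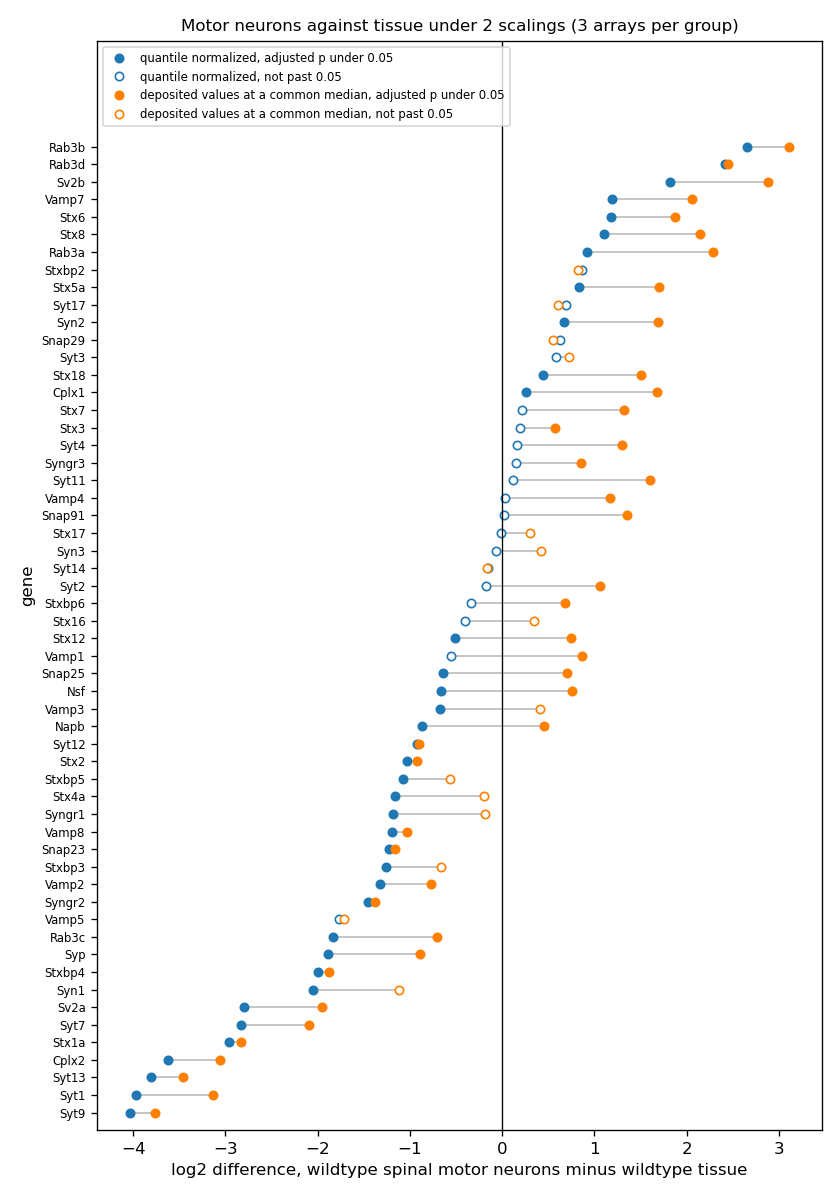
Points are the log2 difference of each tested member, wildtype spinal motor neurons minus wildtype tissue (3 arrays each), after quantile normalization (blue) and at a common median (orange); filled points passed an adjusted p of 0.05 in limma. The orange points lie mostly to the right of the blue ones, and 4 members passed on opposite sides of 0.

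Members that rose or fell in wildtype spinal, wildtype facial and mutant spinal motor neurons over tissue, under both scalings, numbered 9 higher and 7 lower. The higher ones were Rab3a, Rab3b, Rab3d, Stx18, Stx5a, Stx6, Stx8, Sv2b and Syn2, and the lower ones Cplx2, Snap23, Stx1a, Syt1, Syt13, Syt7 and Vamp8. The call of Stx18 in wildtype spinal motor neurons was lost when any of 5 of the 6 arrays was left out, and that of Rab3d in facial ones when any of 4 of the 6 was. The wildtype comparisons share their tissue arrays, so these lists are not independent of each other. How many of all genes met the same rule was not counted. After quantile normalization, 58.7% of all genes passed against tissue in wildtype spinal, 68.2% in wildtype facial and 68.8% in mutant spinal motor neurons. The wildtype and mutant spinal comparisons share no array: 33 members passed in both, of 37 in wildtype and 45 in mutants, and 49 of 55 tested members had the same sign in both (89.1%, against 88.8% of all genes). The share of all genes that passed in both was not counted.

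The Rab3 GTPases, which cycle on and off vesicles before release, held the largest rises. Rab3b was at 10.66, 11.11 and 10.96 in wildtype tissue, at 13.27, 13.73 and 13.69 in wildtype spinal motor neurons and at 13.99, 13.45 and 13.68 in wildtype facial motor neurons. Every motor neuron array lay above every tissue array. The rise was 6.30-fold in wildtype spinal (log2 difference 2.65, SE 0.20, adjusted p = 1.76e-05) and 6.95-fold in wildtype facial motor neurons (2.80, adjusted p = 4.69e-06), and 5.43-fold (2.44) in mutant spinal ones; Rab3b has a single probe set here. Rab3d, the Rab3 form known from secretory granules, was at 8.26 to 9.03 in wildtype tissue, close to background, and at 10.43, 11.70 and 11.13 in wildtype spinal motor neurons, a log2 difference of 2.42 (adjusted p = 0.000706). It rose by 2.07 in facial motor neurons, where a single array at 9.09 lay near the tissue range and the call was lost without either of wildtype tissue replicates 1 and 3 or facial replicates 2 and 3 (adjusted p = 0.0511 to 0.0765), and by 3.18 in mutant spinal ones. Its other bright probe sets gave 2.68 and 2.05 in the wildtype spinal comparison.

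Rab3a, the main Rab3 of brain vesicles, was at 15.26 to 15.29 on the 3 wildtype tissue arrays and at 16.04, 16.45 and 16.07 in wildtype spinal motor neurons, with no overlap (1.89-fold, log2 difference 0.92, adjusted p = 0.000403). A second bright probe set of Rab3a gave -0.23, so the gene's direction rests on the probe set used. The brightest probe set of Rab3c, the remaining member of the family, was lower in wildtype spinal motor neurons, at 13.36, 13.15 and 12.71 against 14.89, 14.97 and 14.84 in tissue (fell by 1.83, 3.56-fold, adjusted p = 5.69e-05). Its other bright probe sets gave 0.53, 2.97 and -1.61, and the mean of all its probe sets 0.18, so the direction is that of the probe set used. The facial difference was -0.46 after quantile normalization and 0.80 at a common median.

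The synapsins, phosphoproteins that hold vesicles in the reserve pool, are given by their brightest probe sets. Syn1 was at 14.55, 14.34 and 14.61 in wildtype tissue and at 11.90, 13.48 and 11.95 in wildtype spinal motor neurons, a fall of 4.16-fold (log2 difference -2.06, adjusted p = 0.00166). At a common median that call was lost (adjusted p = 0.0569). In facial motor neurons, at 12.09, 11.90 and 11.04, the fall was 7.08-fold (-2.82). Syn2 rose by 0.67 (adjusted p = 0.00464), 0.92 and 0.57 in wildtype spinal, wildtype facial and mutant spinal motor neurons. Other bright probe sets of Syn2 gave 0.17, 0.83 and -1.62 in the wildtype spinal comparison, and with the mean of all its probe sets the calls were lost in wildtype spinal (adjusted p = 0.257) and facial motor neurons (0.958). Of the 8 synapsin, Rab3 and Snap91 members, 4 rose and 2 fell in the wildtype spinal comparison, 4 and 2 in the facial and 5 and 2 in the mutant one. Of all genes, 35.5% rose and 23.1% fell, 41.3% and 26.9%, and 42% and 26.8% in the same order.

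Among the membrane proteins of the vesicle, Sv2b rose and Sv2a fell. Sv2 proteins are glycoproteins of the vesicle membrane and serve as receptors of botulinum neurotoxin A. Sv2b was at 13.31, 13.42 and 13.45 in wildtype tissue and at 14.94, 15.35 and 15.35 in wildtype spinal motor neurons, with no overlap (3.53-fold, log2 difference 1.82, SE 0.15, adjusted p = 2.49e-05). In facial motor neurons, at 14.28, 14.35 and 14.32, it rose 1.90-fold (0.92), and in mutant spinal ones 3.54-fold (1.82). Its other probe set gave 2.12 in the wildtype spinal comparison. Sv2a fell 6.97-fold in wildtype spinal (-2.80, adjusted p = 6.22e-05) and 6.72-fold in facial motor neurons (-2.75); in mutant spinal ones it fell 3.87-fold, a call lost at a common median (adjusted p = 0.0506).

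Sv2c, the third Sv2 protein, was close to background in tissue at 7.53 to 8.25 in wildtype and 7.87 to 8.18 in mutants. In mutant spinal motor neurons it was at 10.12, 10.50 and 8.76, a rise of 1.72 (adjusted p = 0.00591). In wildtype spinal motor neurons the arrays read 4.57, 9.30 and 9.76, and the gene did not pass the brightness filter in either wildtype comparison with tissue. Synaptophysin, Syp, fell 3.70-fold in wildtype spinal motor neurons (-1.89, adjusted p = 0.000305), from 14.58, 14.60 and 14.62 to 12.44, 13.36 and 12.33, and 3.28-fold in facial ones (-1.71). In mutant spinal motor neurons it was at -0.70 (adjusted p = 0.000185) after quantile normalization and at 0.38 at a common median. Of 6 vesicle membrane proteins tested in the wildtype spinal comparison, 1 rose and 4 fell, beside 35.5% and 23.1% of all genes, with a median of -1.32.

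The synaptotagmins gave the largest falls in spinal motor neurons. Syt1, the sensor of fast release in the forebrain, was at 14.79, 14.89 and 14.91 in wildtype tissue, at 11.07, 10.94 and 10.65 in wildtype spinal motor neurons and at 11.75, 11.85 and 11.81 in wildtype facial motor neurons. No motor neuron array came near the tissue arrays. The fall was 15.7-fold in wildtype spinal (log2 difference -3.97, SE 0.17, adjusted p = 1.85e-06), 8.35-fold in wildtype facial (-3.06) and 16.5-fold in mutant spinal motor neurons (-4.04). Its other bright probe sets gave -2.24 and -0.52 in the wildtype spinal comparison, so the sign was shared and the size was not. Syt7, a high-affinity sensor of slower release, fell 7.14-fold in wildtype spinal (-2.84, adjusted p = 3.17e-05), 4.73-fold in facial and 5.44-fold in mutant spinal motor neurons, and its other bright probe sets gave -0.88 and -2.11. Syt13, which lacks the calcium-binding residues of Syt1, fell by 3.81 in wildtype spinal motor neurons to 8.09, close to background, and 5.93-fold (-2.57) in facial ones. Syt9, another calcium sensor, fell by 4.03 and Stx1a, the neuronal syntaxin, fell by 2.96 in wildtype spinal motor neurons, both to levels close to background.

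Syt2, the sensor of fast release in the spinal cord, the brainstem and the neuromuscular junction, did not pass in either wildtype comparison, and rose by 0.39 in mutant spinal motor neurons (adjusted p = 0.00706). It was at 14.90, 14.84 and 14.84 in wildtype tissue, at 14.57, 15.26 and 14.21 in wildtype spinal motor neurons and at 14.55, 14.73 and 14.74 in wildtype facial ones. The spinal arrays lay on both sides of the tissue arrays, with differences of -0.18 (adjusted p = 0.533) for spinal and -0.19 (0.0574) for facial ones, and of 1.06 and 1.10 at a common median, where both passed (0.00436 and 3.94e-06). Its other bright probe sets gave 1.24 and 1.70 in the wildtype spinal comparison. Across the synaptotagmins, 0 of 11 tested rose and 5 fell in wildtype spinal motor neurons, beside 35.5% and 23.1% of all genes. In wildtype facial ones 2 of 12 rose and 7 fell, beside 41.3% and 26.9% of all genes. In mutant spinal ones 3 of 10 rose and 3 fell, beside 42% and 26.8%.

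Of the tested proteins that bind SNAREs, most fell after quantile normalization. Complexin 2, Cplx2, which clamps partly zipped SNARE complexes, was at 13.38, 13.47 and 13.49 in wildtype tissue and at 10.78, 9.80 and 8.90 in wildtype spinal motor neurons. It fell 12.3-fold there (log2 difference -3.62, SE 0.40, adjusted p = 0.000106), by a log2 difference of -3.33 in facial and 9.72-fold in mutant spinal motor neurons (-3.28), and its other bright probe set gave -4.13 in the wildtype spinal comparison. Complexin 1, Cplx1, rose by 0.26 in wildtype spinal motor neurons (adjusted p = 0.0362) and by 0.37 in mutant ones, while another of its probe sets gave -5.10 in the former. Stxbp6, also called amisyn, which carries a Vamp-like SNARE motif, fell 4.71-fold in facial motor neurons (-2.24, adjusted p = 0.00179) and was at -0.34 (adjusted p = 0.135) in wildtype spinal ones. Of these regulators, 1 of 9 tested rose and 6 fell in wildtype spinal motor neurons, 0 and 7 in facial ones and 1 and 7 among mutant spinal ones. The shares of all genes were 35.5% and 23.1%, 41.3% and 26.9%, and 42% and 26.8%. Nsf, and Napb in the spinal comparisons, are among those that turned at a common median. Under both scalings, only Cplx2 and Stxbp4 fell in wildtype spinal and only Cplx2 and Stxbp3 in mutant spinal motor neurons. In facial ones Cplx2, Stxbp3, Stxbp4, Stxbp5 and Stxbp6 did. The other bright probe sets of Stxbp5 gave 0.96 and 0.86 in the wildtype spinal comparison.

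SNAREs were also counted by the membrane on which they act, in wildtype spinal motor neurons beside 35.5% of all genes that rose and 23.1% that fell. Of the target SNAREs of the plasma membrane, 0 of 6 tested rose and 5 fell in wildtype spinal motor neurons, with a median of -1.10. Among them were Stx1a, Snap25, whose direction turned at a common median, Snap23 (2.34-fold, log2 difference -1.22, adjusted p = 0.0403), the broadly expressed relative of Snap25, and Stx4a (2.24-fold, -1.17, adjusted p = 0.000414; adjusted p = 0.316 at a common median). The exception was Stx3, a plasma membrane syntaxin, which was not past the threshold in wildtype spinal motor neurons (0.19, adjusted p = 0.387) and rose 2.42-fold in both facial wildtype (1.27) and mutant spinal motor neurons (1.27). Of the SNAREs of internal membranes, 4 of 9 rose and 1 fell in wildtype spinal motor neurons, with a median of 0.45. They were Stx6 (2.27-fold, 1.18, adjusted p = 0.000993) and Stx8 (2.15-fold, 1.10, adjusted p = 0.00196) of the trans-Golgi and endosomes, Stx5a (1.78-fold, 0.83) of the route from the endoplasmic reticulum to the Golgi, and Stx18 (0.45) of the endoplasmic reticulum. The Stx18 call was lost without any of wildtype tissue replicates 1, 2 and 3 and spinal replicates 2 and 3 (adjusted p = 0.0592 to 0.174), with no filter (0.0566) and without the trend (0.0839). In facial motor neurons 5 rose and 2 fell (41.3% and 26.9% of all genes), and in mutant spinal ones 6 and 2 (42% and 26.8%). The test does not compare these role groups with each other, and the mean of all probe sets gave Stx6 -0.64 and Stx18 -0.18.

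Among the vesicle SNAREs, 1 of 7 rose and 3 fell in wildtype spinal motor neurons, beside 35.5% and 23.1% of all genes. The riser was Vamp7, a tetanus toxin-insensitive Vamp of endosomes and late secretory vesicles (2.28-fold, log2 difference 1.19, adjusted p = 0.00356). Vamp2, the main vesicle SNARE of the forebrain, fell 2.50-fold (-1.32, adjusted p = 0.00196) and Vamp8, of endosomes, 2.29-fold (-1.20, adjusted p = 0.0242). Vamp1, the vesicle SNARE known from spinal cord, brainstem and neuromuscular junction, was at 16.57, 16.59 and 16.59 in wildtype tissue and at 15.46, 16.55 and 16.10 in wildtype spinal motor neurons (-0.55, adjusted p = 0.0662; 0.86 at a common median). In mutants the 3 tissue arrays (16.38 to 16.48) and the 3 spinal motor neuron arrays (16.37 to 16.50) overlapped, with a difference of 0.01. A dimmer probe set of Vamp1, with a mean of 9.46 over the 18 arrays, was lower than in tissue in all 3 comparisons, and no size is read from it.

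How far the probe sets of a gene went the same way was counted for the members that passed. Of those with another bright probe set, all the others had the same sign for 14 of 24 in wildtype spinal, 18 of 29 in facial and 15 of 29 in mutant spinal motor neurons against tissue. Among the 9 members that were higher in all 3 comparisons under both scalings, this held for Rab3d, Stx5a and Sv2b, Rab3b had no other bright probe set, and 5 had at least 1 of opposite sign. Among the 7 that were lower, it held for Cplx2, Syt1 and Syt7, and the other 4 had no other bright probe set. The actin ratio differed widely between the sample kinds in every such comparison, and its part in the disagreements was not tested.

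Genes of the release site and of vesicle recycling moved in both directions in wildtype spinal motor neurons against tissue, where 35.5% of all genes rose and 23.1% fell. Of 22 genes of active zone scaffolds and priming tested in wildtype spinal motor neurons against tissue, 6 rose and 8 fell (median -0.10). Lin7b, a scaffold adaptor, rose by 2.75 and Unc13c, a priming factor, fell by 2.81. Of 23 vesicle endocytosis genes, 6 rose and 8 fell (median -0.13), with the clathrin adaptor subunit Ap2b1 at -2.40 and the membrane-bending Bin1 at -2.67. Of 23 other trafficking proteins, 6 rose and 5 fell (median 0.04), among them the synaptophysin-like Sypl at -3.03 and the Rab acceptor Rabac1 at -2.11. Of the 3 vesicular transmitter transporters tested, Slc17a6 for glutamate fell by 4.58 and Slc32a1 for GABA and glycine fell by 2.32. In facial motor neurons the counts were 7 higher and 11 lower of 22 active zone, 5 and 14 of 23 endocytosis and 8 and 10 of 23 other trafficking genes (41.3% and 26.9% of all genes). The genes with the smallest p there were Lin7b (2.77), Lin7c (-1.90), Ap2b1 (-3.46), the dynamin Dnm1 (-1.61), Rabac1 (-1.57), the synuclein Sncg (2.32), Slc32a1 (-5.23) and Slc17a6 (-5.49). In mutant spinal motor neurons the counts were 10 and 8 of 23, 8 and 9 of 24 and 10 and 7 of 22 (42% and 26.8% of all genes). Lin7b was at 2.65 there, Unc13c at -3.10, the clathrin light chain Clta at 0.84, Bin1 at -1.94, Sypl at -3.22, Rabac1 at -2.18 and Slc17a6 at -4.34. The vesicular acetylcholine transporter Slc18a3 rose there by 1.56 (adjusted p = 2.44e-05).

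Between motor neurons of the spinal cord and of the facial nucleus, few members passed. Stxbp6 and the brightest probe set of Rab3c did so in both genotypes, but the other bright probe sets of Rab3c did not share its wildtype direction. In wildtype, 4 of 53 members passed (7.55%, against 3.97% of all genes tested), with Stxbp6 and Sv2b higher in spinal motor neurons (2.13% of all genes) and Rab3c and Stx3 lower (1.83%). At an unadjusted p under 0.05 in limma were 12, beside 21.5% of all genes. Arrays of the sites did not overlap for 14 members (26.4%, against 28.5% of all genes). In mutants 5 of 55 passed (9.09%, against 7.3%), with Stxbp6, Syn1 and Syt11 higher in spinal motor neurons (4.09% of all genes) and Rab3c and Syt1 lower (3.22%). At an unadjusted p under 0.05 were 14 (22.9% of all genes), and 15 did not overlap (27.3%, against 28.4%). The genotypes share no array, and 40 of 53 members had the same sign in both (75.5%, against 67.1% of all genes). The actin ratio was 40.9 to 56.9 in wildtype spinal against 59.7 to 74.4 in wildtype facial motor neurons and 25.3 to 39.1 against 26.6 to 59.0 in mutants, and its part in these differences was not tested beyond the fit with the ratio as a covariate.

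Rab3c was at 13.36, 13.15 and 12.71 in wildtype spinal and at 14.32, 14.53 and 14.49 in wildtype facial motor neurons, with every spinal array below every facial array. It was 2.60-fold lower in spinal motor neurons (log2 difference -1.38, SE 0.19, adjusted p = 0.00744). In mutants the arrays were at 13.83, 13.40 and 13.14 and at 14.21, 14.46 and 14.43, again with no overlap (1.88-fold, -0.91, SE 0.18, adjusted p = 0.0133). The other bright probe sets of Rab3c gave 0.02, 0.20 and 0.54 in wildtype and -0.53, -0.66 and -1.24 in mutants. With the mean of all its probe sets, the wildtype difference was 0.059 and the mutant call was lost (adjusted p = 0.107), so the wildtype direction is that of the brightest probe set and not of the other bright ones. With the actin covariate the wildtype call was lost (adjusted p = 0.239). The mutant call was also lost without the trend (0.0798) and without mutant spinal replicate 3 (0.0511).

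Stxbp6 was at 13.33, 13.98 and 13.58 in wildtype spinal and at 12.73, 10.72 and 11.74 in wildtype facial motor neurons. It was 3.73-fold higher in spinal motor neurons (log2 difference 1.90, SE 0.43, adjusted p = 0.0445), with no overlap and a wide spread among the facial arrays. In mutants it was at 13.64, 13.76 and 13.25 against 11.42, 11.92 and 12.16, which is 3.28-fold (1.71, SE 0.22, adjusted p = 0.00141). Its second probe set gave 2.54 in wildtype and 2.73 in mutants. The wildtype call was lost without any single wildtype spinal array (adjusted p from 0.073 to 0.143), without facial replicate 2 (0.0841) or 3 (0.132), with no mean-variance trend (0.112), with the replicate block (0.0619) and with the actin covariate in the model (0.363). The mutant call held in all 11 alternatives and without each array. Tissue from the ventral cord was at 13.95 to 13.98 in wildtype, near the spinal motor neurons.

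Sv2b in wildtype was at 14.94, 15.35 and 15.35 in spinal against 14.28, 14.35 and 14.32 in facial motor neurons (1.86-fold, log2 difference 0.89, SE 0.15, adjusted p = 0.0138). In mutants the facial arrays read 14.52, 14.83 and 15.11, close to the spinal 15.39, 15.01 and 15.14, and the gene did not pass (0.36, adjusted p = 0.194). Its other probe set gave 0.47 and 0.76. Stx3 in wildtype was at 11.68, 11.95 and 11.88 in spinal against 13.17, 12.76 and 12.82 in facial motor neurons (2.12-fold lower, -1.08, SE 0.20, adjusted p = 0.0240). In mutants the sites overlapped, at 12.43, 13.28 and 12.65 against 12.78, 12.74 and 12.57 (0.09, adjusted p = 0.840), and another bright probe set gave -1.09 in wildtype and 0.19 in mutants. The Sv2b call was lost without wildtype spinal replicate 3 (adjusted p = 0.0769) or facial replicate 2 (0.0521) or 3 (0.0809). That of Stx3 was lost without spinal replicate 3 (0.0816) or any facial array (0.0631 to 0.130), and both were lost with the actin covariate (0.371 and 0.263). Without the trend both were lost as well (0.0704 and 0.0506). The Stx3 call was also lost with the mean of all probe sets (0.322) and the replicate block (0.0567).

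Syt11, a synaptotagmin that does not bind calcium, was at 16.98, 16.98 and 17.00 in mutant spinal against 16.47, 15.95 and 16.63 in mutant facial motor neurons (1.55-fold higher, log2 difference 0.63, adjusted p = 0.0184), and at 0.56 (adjusted p = 0.0715) in wildtype. Its other probe sets gave 0.46, 0.06, 0.20 and 0.31 in mutants. Syt1 in mutants was at 10.78, 10.79 and 10.35 in spinal against 11.67, 11.27 and 11.80 in facial motor neurons (1.92-fold lower, -0.94, adjusted p = 0.0366) and at -0.91 (adjusted p = 0.0585) in wildtype, while its other bright probe sets gave 0.66 and -1.23 in mutants. Syn1 was 1.83-fold higher in mutant spinal motor neurons (0.87, adjusted p = 0.0456) and at 0.77 (adjusted p = 0.350) in wildtype. The mutant call of Syn1 was lost without spinal replicates 1, 2 or 3 or facial replicates 1 or 2 (adjusted p = 0.0536 to 0.156), at a common median (0.0513), with no filter (0.0556) and without the trend (0.129). The mutant calls of Syt11 and Syt1 were both lost without any single spinal array. That of Syt11 was also lost at a common median (adjusted p = 0.0894), with the mean of all probe sets (0.228) and without the trend (0.151). That of Syt1 was also lost without mutant facial replicate 1 (0.0976) or 3 (0.121). It was lost too with no filter (0.0659), the mean of all probe sets (0.820), no trend (0.0770) and the replicate block (0.0652). Vamp1 and Sv2c did not pass in either genotype: Vamp1 was at 0.07 and 0.21, and Sv2c at -1.68 (adjusted p = 0.454, with the wildtype array at 4.57) and 0.31.

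**Figure D3:**
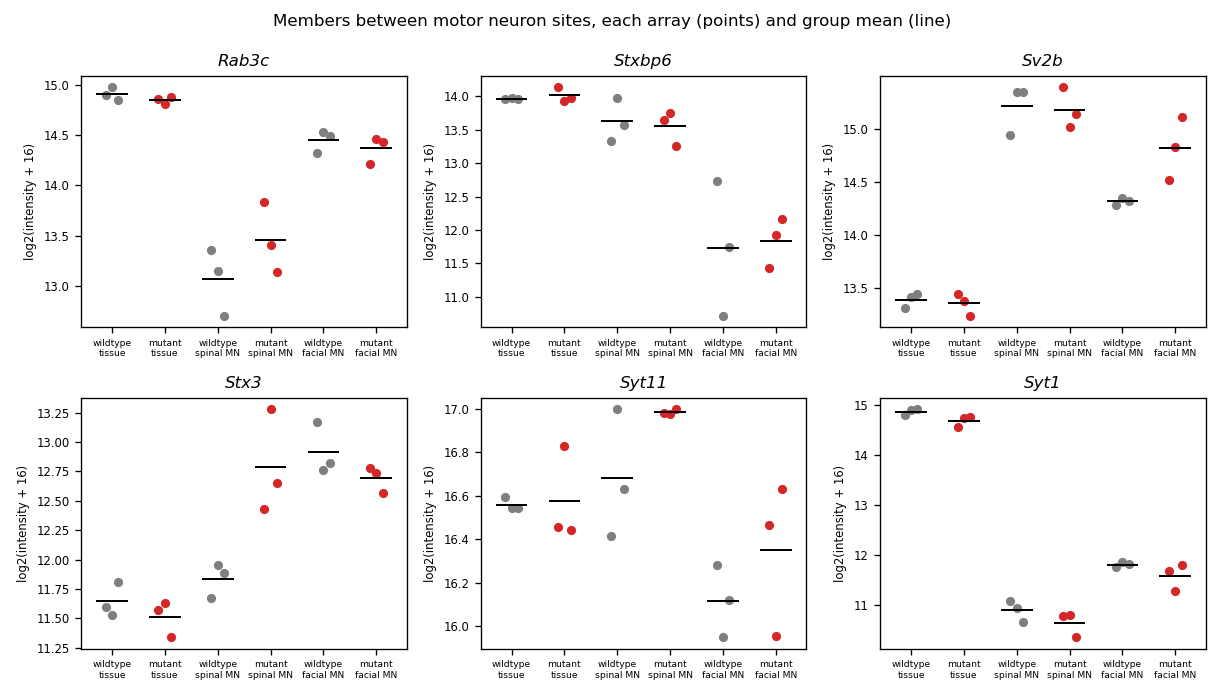
Points are the log2(intensity + 16) levels on each array and lines the group means, 3 arrays per group, for 6 members that passed between sites in at least 1 genotype. Facial arrays lie above spinal ones for Rab3c and below them for Stxbp6 in both genotypes, while Stx3 is separated by site in wildtype and not in mutants.

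**Figure D4:**
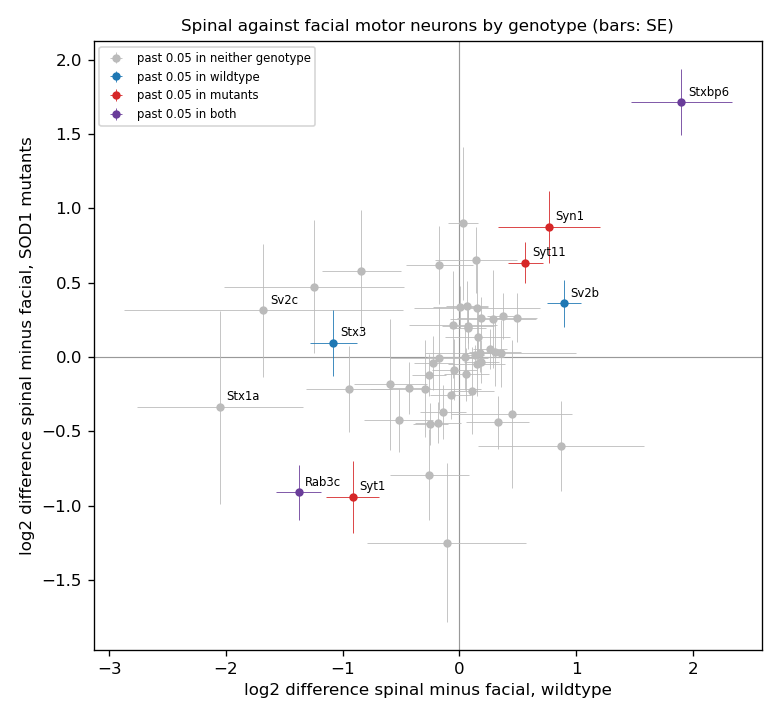
Each point is a member tested in both genotypes, with the log2 difference spinal minus facial motor neurons in wildtype on the x axis and in SOD1 mutants on the y axis; bars are SE from limma (3 arrays per group). Rab3c and Stxbp6 passed in both genotypes, and 40 of the 53 points have the same sign on both axes.

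Beside the members, the lists of the release site and of vesicle recycling were counted between sites too. In wildtype, 0 of 20 active zone genes, 0 of 22 other trafficking proteins and 0 of 22 endocytosis genes passed in limma, against 3.97% of all genes. Of them, 6, 6 and 5 were at an unadjusted p under 0.05, beside 21.5% of all genes. The transporter Slc32a1, a marker of inhibitory interneurons, was higher in wildtype spinal motor neurons (2.91, adjusted p = 0.00932). In mutants 9 of the 69 genes of all 4 lists passed, against 7.3% of all genes (4.09% higher and 3.22% lower). Of the active zone genes, 4 of 20 were higher in spinal motor neurons, with Caskin1 at 1.23 (adjusted p = 0.0138) and the Munc18-interacting Apba2 at 0.85 (adjusted p = 0.0229). Of the endocytosis genes 2 of 23 were higher and 1 lower, with the clathrin adaptor subunit Ap2m1 at 0.94 (adjusted p = 0.000976) and the dynamin Dnm1 at 1.18 (adjusted p = 0.00401). Of the other trafficking proteins 2 of 22 were lower, Rab27b at -1.35 (adjusted p = 0.0153) and Rabac1 at -0.63 (adjusted p = 0.0241). Microglia markers differed in the same mutant comparison, higher in spinal motor neurons for 9 of 10 tested (median 1.87), with array means of 11.50 to 11.75 against 9.71 to 10.13, and their part in the member differences was not tested.

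In ventral cord tissue, no member passed the test between SOD1 mutants and wildtype. Of 57 tested, 22 were higher and 35 lower, with 0 past the threshold in limma (0.623% of all genes passed). At an unadjusted p under 0.05 were 11 (9.91% of all genes), and the smallest adjusted p was 0.0707. The median member difference was -0.04 beside -0.01 over all genes, of which 51.3% were lower. Arrays of the genotypes did not overlap for 15 members (26.3%, against 15.7% of all genes). Mutants lay below wildtype for 10 of them, against 8.68% of all genes (Nsf, Rab3a, Syn1, Syn3, Syngr1, Syp, Syt1, Syt12, Syt2 and Vamp1) and above it for 5, against 7.05% (Stx12, Stx7, Syngr2, Syt4 and Vamp3). Of 7 tested synapsin, Rab3 and Snap91 members, all 7 were lower, with a median of -0.17. The other role groups had members on both sides. Higher and lower were 5 and 8 synaptotagmins, 3 and 6 regulators, 2 and 4 vesicle membrane proteins and 4 and 3 vesicle SNAREs. The SNAREs of internal membranes were 5 and 4, and those of the plasma membrane 3 and 3. Microglia markers rose in the same comparison for 7 of 11 (median 0.75), from array means of 11.57 to 11.61 in wildtype to 12.27 to 12.45 in mutants, and their part in the member differences was not tested.

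Syt2 had the smallest p in tissue. It was at 14.90, 14.84 and 14.84 in wildtype and at 14.55, 14.53 and 14.56 in mutants, with no overlap, which is 1.24-fold lower in mutants (log2 difference -0.31, SE 0.06, adjusted p = 0.0707). It passed with the replicate number as a block (adjusted p = 0.0347) and with the actin covariate (0.0247). It did not pass without any single array (adjusted p = 0.0998 to 0.336), and adjusted p was as high as 0.99996 under other settings. The other bright probe sets of Syt2 gave -0.30 and -0.0015. Syt4, a synaptotagmin found on dense core vesicles, was at 14.10, 14.29 and 14.13 against 14.59, 14.48 and 14.43 (0.33, adjusted p = 0.175), and Syngr2, a synaptogyrin of non-neuronal cells, at 11.17, 10.99 and 10.97 against 11.49, 11.42 and 11.50 (0.43, adjusted p = 0.208). Nsf was at 16.59, 16.62 and 16.56 against 16.43, 16.42 and 16.42 (-0.17, adjusted p = 0.225). Rab3a was at 15.26, 15.27 and 15.29 against 15.15, 14.96 and 14.91 (-0.27, adjusted p = 0.225) and passed without mutant replicate 1 (-0.34, adjusted p = 0.0498). Vamp1 was at -0.15 (adjusted p = 0.317), Vamp3 at 0.19 (0.434) and Rab3c at -0.06 (0.843).

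In spinal motor neurons no member passed between genotypes either. Of 53 tested, 35 were higher and 18 lower in mutants, with 0 past the threshold in limma (0.0641% of all genes passed). At an unadjusted p under 0.05 were 5 (9.49% of all genes), and the smallest adjusted p was 0.274. The median was 0.15 beside 0.01 over all genes, and 0.08 at a common median. The genotypes did not overlap for 3 members, Stx2, Stx3 and Syp (5.66%, against 14.3% of all genes). The spread among the wildtype arrays was wide, with a median SD of 0.49 over the members, against 0.34 over all genes at or above 8.79 in that group and 0.27 over the members in mutants. The actin ratio was 40.9 to 56.9 in wildtype and 25.3 to 39.1 in mutants, microglia markers were at array means of 9.05 to 10.71 and 11.50 to 11.75, and their part in the member differences was not tested.

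Syp was at 12.44, 13.36 and 12.33 in wildtype and at 13.66, 13.96 and 13.73 in mutant spinal motor neurons, with every mutant array above every wildtype array (log2 difference 1.07, SE 0.27, adjusted p = 0.274). The other probe set of Syp, close to background, gave -0.98. Its difference was as low as 0.046 under other settings, so the size is that of the probe set used. Stx3 was at 11.68, 11.95 and 11.88 against 12.43, 13.28 and 12.65 (0.95, adjusted p = 0.342) and passed when all 18 arrays shared a fit (adjusted p = 0.0222). Another bright probe set of Stx3 gave 0.15, and the difference was as low as 0.0056 under other settings, so its size is that of the probe set used. Vamp7 was at 14.36, 13.33 and 14.06 against 13.33, 12.83 and 13.13, with the lowest wildtype array inside the mutant range (-0.82, adjusted p = 0.437). Syt11 was at 0.30 (0.519), Stxbp3, a Munc18 protein, at -0.62 (0.543), Vamp4, of the trans-Golgi, at -0.38 (0.557), Vamp1 at 0.41 (0.557), Rab3c at 0.39 (0.590) and Sv2c at 1.92 (0.589), the last resting on the wildtype array at 4.57. Wildtype replicate 2 decided these counts: without it 6 members passed, 4 higher and 2 lower, among 665 genes (6.09% of those tested). They were Syp at 1.40 (adjusted p = 0.00547), Syn1 at 0.97 (0.0326), Vamp1 at 0.66 (0.0337), Syt11 at 0.46 (0.0162), Vamp7 at -1.11 (0.0147) and Vamp4 at -0.60 (0.0350).

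In facial motor neurons 29 of 54 members were higher and 25 lower in mutants, with 0 past the threshold in limma (0% of all genes passed). At an unadjusted p under 0.05 were 9 (17.9% of all genes), and the smallest adjusted p was 0.129. The median was 0.06 beside 0.02 over all genes. The genotypes did not overlap for 9 members (16.7%, against 24.1% of all genes), with mutants above for Cplx1, Snap25, Snap91, Stx7, Sv2b, Syt12 and Vamp3 (13% of all genes) and below for Stx18 and Stx5a (11.1%). Stx7, a SNARE of late endosomes, was at 14.09, 14.19 and 13.93 in wildtype and at 14.47, 14.52 and 14.69 in mutants (log2 difference 0.49, adjusted p = 0.129; 0.0425 when all 18 arrays shared a fit). Snap91, the clathrin assembly protein AP180, was at 15.02, 15.15 and 15.08 against 15.31, 15.47 and 15.65 (0.40, adjusted p = 0.142), and Sv2b at 14.28, 14.35 and 14.32 against 14.52, 14.83 and 15.11 (0.50, adjusted p = 0.159). Stx8 was at -0.44 (0.237), Stx5a at -0.32 (0.273), Vamp1 at 0.27 (0.247), Rab3c at -0.08 (0.771) and Sv2c at -0.07 (0.928). Stx1a was at -1.03 (0.402), with a mutant array at 7.51 beside the others at 10.02 and 9.89, and at -0.22 without that array. Without mutant replicate 2, Snap25 (0.58, adjusted p = 0.0388), Stx16 (0.74, 0.0435) and Vamp1 (0.40, 0.0367) passed, among 380 genes (3.48%). The actin ratio was 59.7 to 74.4 in wildtype and 26.6 to 59.0 in mutants, and its part in these differences was not tested beyond the covariate fit.

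**Figure D5:**
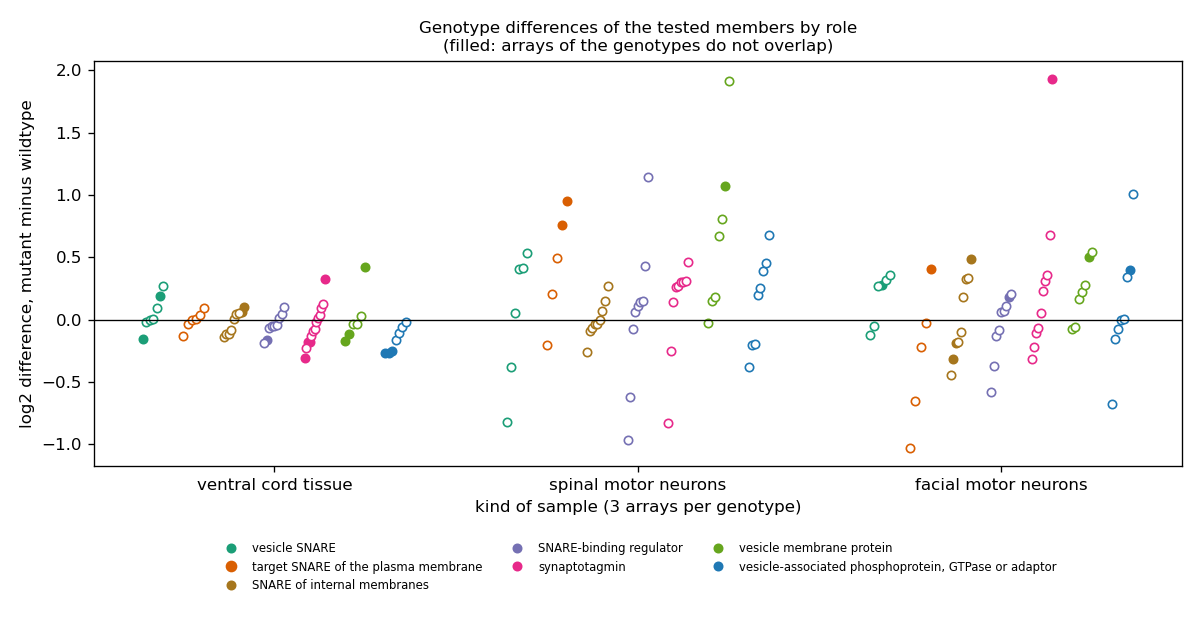
Points are the log2 differences, mutant minus wildtype, of each tested member in tissue, spinal and facial motor neurons (3 arrays per genotype), coloured by role; filled points are members whose genotypes did not overlap. The points lie closest to 0 in tissue, where 15 are filled, against 3 among spinal and 9 among facial motor neurons, with no member past an adjusted p of 0.05.

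Whether the genotype difference itself differed between sample kinds was tested as an interaction. Of 55 members tested, 0 passed for spinal motor neurons minus tissue in limma (0.055% of all genes passed). At an unadjusted p under 0.05 were 5 (8.84% of all genes). The smallest adjusted p was 0.366, for Syp (1.19, and -0.35 with the mean of all its probe sets). Stx3 (1.08, adjusted p = 0.459), Rab3a (0.46, 0.514) and Vamp7 (-0.80, 0.542) followed. Without wildtype spinal replicate 2, 10 members passed, 8 higher and 2 lower, among 876 genes (8.02%), led by Syp (1.51, adjusted p = 0.000448). For spinal minus facial motor neurons 0 of 55 passed (0% of all genes passed), with 4 at an unadjusted p under 0.05 (9.03% of all genes). The smallest adjusted p was 0.377, for Stx3 (1.18), followed by Stx2 (1.42, 0.521), Sv2b (-0.53, 0.522) and Vamp7 (-0.76, 0.525). A site difference of Stx3 or Sv2b that passed in wildtype and not in mutants is therefore not shown to differ between the genotypes. Genes of active zone scaffolds, endocytosis, other trafficking and transmitter transport had 0 members past the threshold between genotypes in any of the 3 sample kinds by limma. At an unadjusted p under 0.05 were 11 of 74, 3 of 69 and 13 of 70 in tissue, spinal and facial motor neurons. The shares of all genes were 9.91%, 9.49% and 17.9%. The list medians were -0.06, -0.07, -0.03 and -0.28 in tissue, 0.10, 0.20, 0.02 and 0.49 in spinal and 0.07, 0.13, 0.11 and 0.70 in facial motor neurons.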

How the data were processed

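RNA of 18 samples in 6 groups of 3 was amplified linearly from a T7 promoter and measured on Affymetrix mouse arrays, per the labels. The authors deposited 1 table of linear intensity values for 45101 probe sets; how images became intensities is not given in the sources used here. Arrays have no read depth, so 3 arrays per group limit the precision. Values were turned into log2(intensity + 16) and quantile normalized. Of the probe sets 34958 had 1 gene symbol in the platform annotation, 932 several and 9211 none, and each gene took its probe set with the highest mean. Each comparison was fitted with limma 3.58.1 in R 4.3.3 (lmFit, eBayes with trend) on the arrays of its own groups. Genes whose mean lay below the 40th percentile were left out, which left 10916 tested genes per comparison, with Benjamini-Hochberg adjustment at 0.05 over them. The fits were checked on simulated data.

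The members and lists were chosen with earlier results of these data known. Named genes are Vamp1, Sv2c and Rab3c, and up to 10 members per direction past the threshold with the largest difference; a direction with fewer than 3 was filled to 3 with the smallest p. Of each other list, the 2 genes with the smallest p were named in a comparison where any passed. Other members are named where they were counted or were chosen after their values were seen. The alternatives were a common median, other pseudocounts, filters and probe set rules, no trend, all arrays in a joint fit, the replicate number as a block, the actin ratio as a covariate, and each array left out. Same-numbered arrays of the 2 genotypes correlated in their deviations from the group means between 0.05 and 0.30 in tissue, 0.02 and 0.08 in spinal and 0.04 and 0.14 in facial motor neurons. Differently numbered arrays correlated between -0.23 and 0.17, -0.056 and 0.018, and -0.13 and 0.049 in the same order. The numbers were not taken to pair samples because most same-number values were low. Whether same-numbered arrays share a source was not tested. Upstream sequences are from RefSeq (GRCm38.p6).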

Additional observations from a re-analysis of the deposited data

Results flagged for a closer look

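Syt12, a synaptotagmin that does not bind calcium, went in opposite directions between genotypes in facial motor neurons and in tissue. In facial motor neurons the wildtype arrays were at 7.12, 9.17 and 9.96 and the mutant arrays at 10.67, 10.63 and 10.75, all above the wildtype ones (log2 difference 1.93, limma adjusted p = 0.183). In tissue the wildtype arrays were at 10.48, 10.68 and 10.47 and the mutant arrays at 10.31, 10.41 and 10.37, all below. The genotype difference in facial motor neurons minus that in tissue was 2.11, and the difference was not tested. The wildtype facial mean lies under 8.79, close to background, so the size of these differences is uncertain and no fold is given.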

How the results depend on the processing

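Without each array in turn, the members past the threshold numbered 0 to 1 between genotypes in tissue, 0 to 6 in spinal and 0 to 3 in facial motor neurons, 29 to 40 for wildtype spinal motor neurons against tissue, 40 to 44 for facial and 41 to 47 for mutant spinal ones, 1 to 5 between sites in either genotype, and 0 to 10 and 0 to 0 for the interactions of spinal motor neurons with tissue and with facial ones. Wildtype spinal replicate 3 and facial replicates 2 and 3 each took the wildtype site count to 1; mutant spinal replicates 1, 2 and 3 took the mutant one to 2, 3 and 1, and facial replicate 1 to 3. With the replicate number as a block, 1, 0 and 0 members passed between genotypes, 37, 44 and 46 against tissue, 2 and 4 between sites and 0 and 0 for the interactions; the own number correlated best for 2 of 3 tissue pairs and 3 of 3 in both motor neurons. With the actin ratio in the model 1 member passed between genotypes in tissue, and 1, 0 and 0 against tissue and 0 between wildtype sites. With all 18 arrays in a joint fit 1, 2 and 10 passed between genotypes in spinal and facial motor neurons and between wildtype sites. Without the trend 1 passed between sites in each genotype, and at a common median, with no filter and with the mean of probe sets 3, 3 and 2 passed between mutant sites. For named genes, 1175 values under the other settings kept their direction and side of the threshold, 87 lost and 12 gained a call and 54 reversed; without single arrays these were 770, 37, 15 and 7. Reversed values with the mean of all probe sets were, between genotypes, Vamp1 -0.76 and Rab3c -0.59 (spinal) and Rab3c 0.32, Snap91 -0.29, Stx5a 0.0081 and Stx1a 0.074 (facial). Against tissue they were Rab3c 0.18, Stx6 -0.64, Stx18 -0.18 and Syp 0.00071 (wildtype spinal), Rab3c 0.12 and Stx6 -0.62 (facial), and Vamp1 -3.41 and Stx6 -0.32 (mutant). They were Rab3c 0.059 between wildtype sites, and for the interactions Vamp1 -0.53, Rab3c -0.42 and Syp -0.35 (tissue) and Vamp1 -1.50 and Rab3c -0.91 (facial). With the actin covariate they were, between genotypes, Vamp1 -0.0043 and Sv2c -0.13 (spinal) and Vamp1 -0.041 and Stx8 0.031 (facial). Against tissue, where the ratio and the sample kind cannot be told apart, they were Vamp1 8.24, Vamp7 -6.21, Stx8 -1.67, Stx5a -0.64, Syn2 -0.72, Syt9 20.30, Stx1a 22.99, Syn1 6.44, Stxbp4 8.68 and Syp 2.54 (wildtype spinal), Vamp1 0.0013, Rab3c 1.79, Stx3 -3.04, Stx6 -4.57, Snap23 0.57, Sv2a 6.99, Vamp5 16.27 and Syt7 1.27 (facial), and Vamp1 -0.26, Sv2c -2.98, Sv2b -0.32, Stx6 -0.22 and Stx1a 2.69 (mutant). They were Vamp1 -0.71 between wildtype sites and Stxbp3 0.020 for the interaction with tissue. At a common median they were Vamp1 0.86 (wildtype spinal), Vamp1 0.89 and Rab3c 0.80 (facial), and Vamp1 -0.027 and -0.0074 between wildtype and mutant sites. Without single arrays the genes that reversed ranged, between facial genotypes, from -0.17 to 0.088 (Sv2c) and -0.14 to 0.00074 (Rab3c), from -0.0165 to 0.047 in mutant spinal motor neurons against tissue (Vamp1), from -0.19 to 0.36 between wildtype (Vamp1) and -0.039 to 0.83 between mutant sites (Sv2c), and from -0.15 to 0.39 for the interaction with facial ones (Vamp1). The cause of these reversals was not tested.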
